A study of Mus musculus with 16 samples.

Results

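This section describes mouse intestinal myofibroblasts that shared their medium with epithelial organoids, set against the same animals' myofibroblasts grown without organoids. The members were the arrays whose titles name fibroblast co-culture or fibroblast monoculture, 6 of the 16 arrays of the study, and the 22180 genes read from probe sets with 1 symbol, of which 18095 passed the filter on dim genes. The co-culture group held 3 arrays of wild-type C57Bl/6 small intestinal myofibroblasts that sat on a membrane insert with 0.4 µm pores above organoids embedded in Matrigel for 24 h. The monoculture group held 3 arrays of wild-type C57Bl/6 small intestinal myofibroblasts cultured alone, and the titles tie each to a co-culture array of the same animal (Pl_I, Pl_II and Pl_III). All animals were labelled male and were 8 to 10 weeks of age. The labels give the medium of the co-culture and do not say whether the monocultures had the same medium and time. They name the cells as myofibroblasts without saying how these were purified, and their tissue source text calls the myofibroblast cultures organoids. Organoids of wild-type crypts, profiled with (n = 2) and without (n = 2) myofibroblasts, and adenoma cells of Apc+/1638N mice (4 animals) served to estimate the spread, and the organoids also for 1 comparison.

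Myofibroblasts lie under the epithelium of the gut. They contract, lay down matrix, and release the Wnt, R-spondin, BMP and BMP-antagonist proteins that set where crypt stem cells divide and where their progeny differentiate. BMP ligands act through receptor kinases that phosphorylate SMAD transcription factors, and the Id genes, Smad6, Smad7 and Atoh8 are direct targets whose transcripts report this signal. Type I interferons act through the STAT and IRF9 complex, which binds the interferon-stimulated response element in the promoters of genes such as Ifit1 and Isg15. Stromal cells are also a main source of chemokines, the secreted proteins that recruit leukocytes.

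The arrays carried the markers of their labelled cell type. The 18 fibroblast identity genes averaged 10.17, 10.38 and 10.18 in co-culture, against 10.08, 10.29 and 10.21 in monoculture on the log2 scale (animals Pl_I, Pl_II and Pl_III in this order here and below), and 3.53 in monocultured organoids. The smooth muscle actin Acta2, which defines myofibroblasts, stood at 12.93, 13.01 and 13.01 in co-culture, against 13.01, 12.99 and 13.04 in monoculture. The 20 epithelial markers averaged 3.41, 3.23 and 3.50 in co-culture, against 3.24, 3.61 and 3.54 in monoculture. The same markers averaged 11.19 in monocultured organoids. The 18 macrophage markers were present in every array and averaged 7.95, 7.68 and 8.46 in co-culture, against 7.64, 7.72 and 8.35 in monoculture. They averaged 3.73 in monocultured organoids, and 0 of the 18 fell below the filter level. Ptprc, the pan-leukocyte phosphatase, was 7.59, 7.35 and 8.59 in co-culture, against 8.03, 7.32 and 8.76 in monoculture. Endothelial markers averaged 3.04 in co-culture and 3.09 in monoculture, and glial and neuronal markers 4.38 in co-culture and 4.43 in monoculture. In these bulk samples fewer cells of a type and less RNA per cell cannot be told apart.

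Both arrays of animal Pl_III stood apart from the rest. Xist, the RNA that coats a silenced X chromosome, was 2.22, 1.87 and 8.29 in co-culture, against 2.25, 2.21 and 8.25 in monoculture. The Y-linked gene Eif2s3y was 8.18, 8.08 and 3.20 in co-culture, against 8.06, 7.93 and 2.53 in monoculture. The 2 arrays titled Pl_III thus carried the pattern of a female animal although they are labelled male, and they matched each other. The monoculture array titled Pl_III is called Pl_II in another of its labels. Its deviations from the group means correlated with those of the Pl_III co-culture array at 0.79 over genes, and with those of the Pl_II co-culture array at -0.51. With the Pl_I co-culture array the correlation was -0.58. Such deviations cancel over the animals of a group, which by itself favours negative values between different animals, so the -0.51 is not separate evidence. The pairing used here follows the titles. Results below are given animal by animal, so that each can be read with and without Pl_III.

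The difference between the culture types was smaller than that between animals, by much only where Pl_III was compared. Over the 18095 genes tested, the co-culture minus monoculture differences had an SD of 0.33, 0.34 and 0.31 in the 3 animals. Within a culture type, Pl_I and Pl_II differed with an SD of 0.39 in co-culture and 0.42 in monoculture. Pairs of animals that held Pl_III differed with an SD of 0.57 to 0.63. The differences of any pair of animals correlated across genes at 0.09 to 0.12 (a description, since genes are not independent replicates). A difference of 1 on this scale is a doubling, and it was exceeded by 167, 145 and 94 genes on the higher side and by 58, 88 and 80 genes on the lower side. Only U90926 and Fabp7 exceeded it on the higher side in all 3 animals, and only Tnfsf18 on the lower side. At 0.5 the counts were 47 genes higher and 24 lower in all 3 animals. In limma's test 0 genes (0.00%) were called higher and 1 gene (0.00553%) lower at an adjusted p under 0.05, and at an unadjusted p under 0.05 there were 281 higher (1.55%) and 232 lower (1.28%). All 3 animals were higher in co-culture for 2760 genes (15.3%) and lower for 2556 (14.1%), and the groups did not overlap for 640 genes on the higher (3.54%) and 623 on the lower side (3.44%). With the animal as a random block 1 gene was called higher (0.00553%) and 2 lower (0.0111%). These shares are the background for the counts of gene lists that follow.

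Mfap4 was the 1 gene called lower, and its co-culture level was dim. It encodes a microfibril-associated glycoprotein that binds elastin and collagen and takes part in the assembly of elastic fibres. Its level was 3.38, 3.35 and 3.31 in co-culture, against 4.64, 4.19 and 4.37 in monoculture. The co-culture arrays lay close together and below every monoculture array, with means of 3.35 ± 0.038 in co-culture and 4.40 ± 0.23 in monoculture (SD, n = 3 each). The difference was -1.06 ± 0.12 (SE; limma, adjusted p = 0.0401), and it was -1.26, -0.84 and -1.07 in the single animals. With the animal as a replicate block the adjusted p was 0.365, and with the animal as a random block 0.00229. The call was kept in 7 of 19 alternatives and lost in 12, while the difference stayed between -1.17 and -0.94. Leaving out 1 array kept it only without the Pl_II monoculture (adjusted p = 0.0318). It was 0.157 without the Pl_I and 0.142 without the Pl_III monoculture, and 0.269, 0.191 and 0.193 without the Pl_I, Pl_II and Pl_III co-culture. Organoids had Mfap4 at 2.93 in co-culture and 2.98 in monoculture. The mean in co-cultured myofibroblasts lay under the 50th percentile of probe set means, 3.62. It was close to the 3.38 of the epithelial markers in the same arrays, so the size of the difference involves values at the dim end of the scale.

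**Figure D1:**
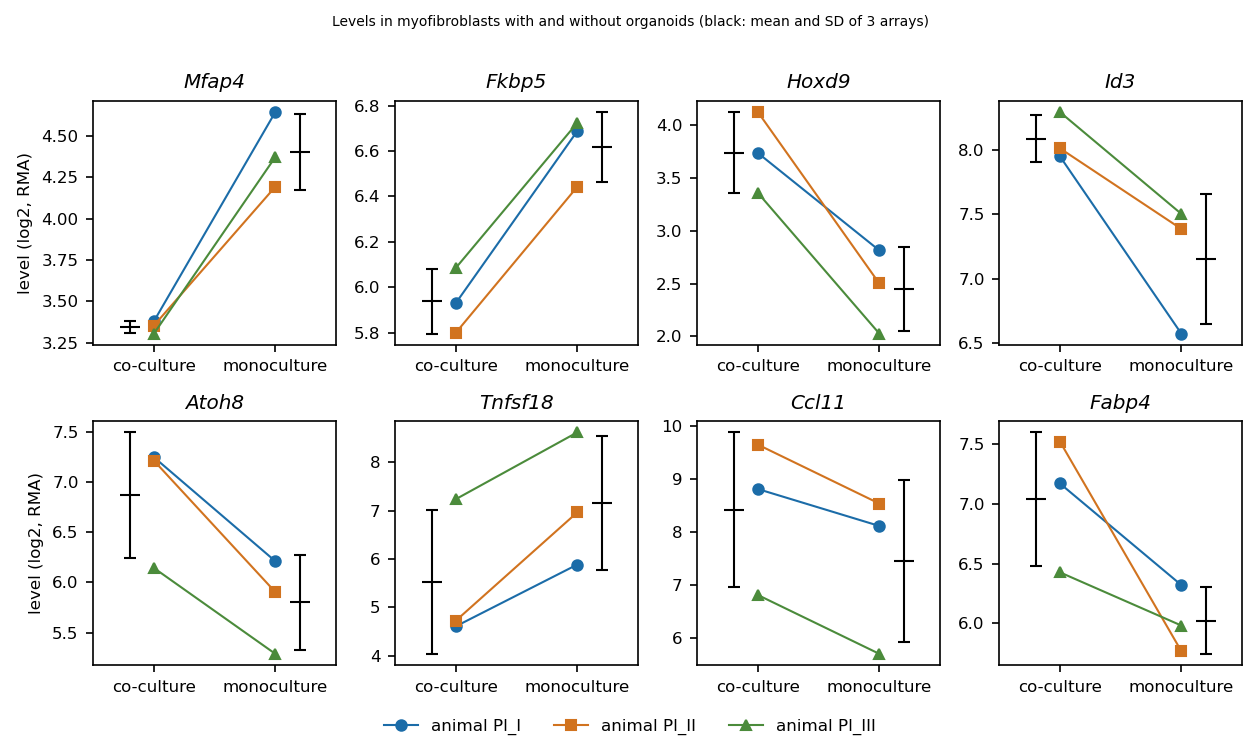
Levels (log2, RMA) of 8 genes in myofibroblasts with organoids (left in each panel) and without (right), 1 line per animal; black bars show the mean and SD of 3 arrays. Mfap4 and Fkbp5 were lower in all 3 co-cultures and Hoxd9 and Id3 higher, with no overlap between the groups, as were the values of Fabp4, whereas Atoh8, Tnfsf18 and Ccl11 differed in 1 direction within every animal while the groups overlapped.

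The other elastic fibre genes did not share the size of the Mfap4 difference. Of the 19 members tested, 1 passed, 8 were lower in all 3 animals and 2 higher, and the median difference was -0.090 against 0.0034 over all genes tested. Elastin itself (Eln) stood at 3.81, 5.43 and 7.95 in co-culture, against 4.17, 5.25 and 8.30 in monoculture, a spread between animals that left its difference at -0.18 ± 1.03. The fibrillin Fbn2 differed by -0.48 ± 0.53 and the elastin-binding fibulin Fbln5 by -0.33 ± 0.30. Loxl1, an oxidase that cross-links elastin, differed by -0.22 ± 0.17. Among Mfap4's namesakes Mfap2 (0.21), Mfap3 (0.11) and Mfap5 (0.085) had positive mean differences, each with at least 1 animal of the opposite sign.

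Collagens leaned lower without passing. Of 18 collagen genes, 8 were lower in all 3 animals and 1 higher, with a median of -0.13 (medians -0.21, -0.0078 and -0.21 in the 3 animals). Col5a3 averaged 7.66 ± 0.57 in co-culture and 8.09 ± 0.42 in monoculture (SD, n = 3 each), and its difference was -0.44 ± 0.28 (adjusted p = 1). The main fibrillar collagens had smaller differences: Col1a1 differed by -0.14 ± 0.16, Col1a2 by -0.12 ± 0.12 and Col3a1 by -0.011 ± 0.24. The 2 probe sets of Col6a1 gave differences of -0.30 and 0.40, so its direction is not settled. Contractile genes as a group showed a median of -0.084 over 15 members, with 2 higher and 2 lower in all 3 animals. Acta2 differed by -0.029 ± 0.33 and Tagln, an actin cross-linker of smooth muscle, by -0.084 ± 0.19. The SE uses a spread pooled over all groups, organoids and adenoma included. The Acta2 levels of the myofibroblast arrays lay closer together than their SE. Targets of TGF-beta, the cytokine that drives matrix synthesis in fibroblasts, had 6 of 13 members lower and 1 higher in all 3 animals (median -0.098), among them Pmepa1 at -0.30 ± 0.27 and Cdkn2b at -0.46 ± 0.64. YAP targets had 6 of 14 lower, 0 higher and a median of -0.090. Each of these lists had 0 members past the test.

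Fkbp5 was lower in every co-culture by a similar amount. It encodes a co-chaperone of the Hsp90 complex that holds steroid receptors, and it is a classical target of the glucocorticoid receptor. Its level was 5.93, 5.80 and 6.09 in co-culture, against 6.69, 6.44 and 6.72 in monoculture. The groups did not overlap, and the difference was -0.68 ± 0.12, lower in 3 of 3 animals. It did not pass the test (adjusted p = 0.833), passed with the animal as a random block (adjusted p = 0.0381), and did not with the fixed replicate block (adjusted p = 0.419). The 9 tested genes of the glucocorticoid list gave no common direction, with 4 lower and 2 higher in all 3 animals. Klf9, a transcription factor induced by steroid and thyroid hormones, differed by -0.47 ± 0.35, Tsc22d3 by -0.14 ± 0.17, Per1 by -0.14 ± 0.19, and the metallothioneins Mt1 and Mt2 by 0.36 ± 0.19 and 0.48 ± 0.34. None of these passed.

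Hoxd9, a homeobox transcription factor of the posterior body axis, was higher in every co-culture. Its level was 3.73, 4.12 and 3.36 in co-culture, against 2.81, 2.50 and 2.03 in monoculture. Every co-culture array lay above every monoculture array, but 2 of the monoculture values lay below the 2.67 that served as the filter level for dim genes. The difference was 1.29 ± 0.21 (adjusted p = 0.522, and 0.0201 with the animal as a random block). Of the 27 Hox genes tested 4 were higher and 2 lower in all 3 animals, against 15.3% and 14.1% of all genes, and the median was 0.15 (0.065 without Pl_II). The neighbours of Hoxd9 in its cluster did not show its difference: Hoxd8 was at 0.39 ± 0.38, Hoxd10 at 0.029 ± 0.14 and Hoxd11 at -0.17 ± 0.16.

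BMP target genes had a positive median difference of similar size in each animal. Of 11 targets tested, 8 were higher in co-culture in all 3 animals and 1 lower, against 15.3% and 14.1% of all genes. The list median was 0.47, and it was 0.46, 0.68 and 0.43 in the single animals and 0.48, 0.48 and 0.49 when each was left out in turn. At an unadjusted p under 0.05 there were 3 members higher (Id3, Atoh8 and Id2), and 0 passed the adjusted threshold.

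Id3, an inhibitor of basic helix-loop-helix factors and a direct SMAD target, was 7.95, 8.01 and 8.29 in co-culture, against 6.58, 7.39 and 7.50 in monoculture. All co-culture values lay above all monoculture values, and the difference was 0.93 ± 0.23 (adjusted p = 1, and 0.211 with the animal as a random block). Atoh8, itself a basic helix-loop-helix factor, was 7.24, 7.21 and 6.14 in co-culture, against 6.21, 5.90 and 5.29 in monoculture. Its groups overlapped, with Pl_III low in both cultures, and within animals the differences were 1.03, 1.31 and 0.85 (1.07 ± 0.33 in the mean). Id2 was 10.29, 9.91 and 9.02 in co-culture, against 9.52, 8.74 and 8.82 in monoculture and differed by 0.71 ± 0.31. The homeobox gene Msx2, a target in mesenchyme, was 5.17, 6.45 and 5.14 in co-culture, against 4.99, 5.58 and 4.21 in monoculture and differed by 0.66 ± 0.37. Smad9, the receptor-activated SMAD that is itself a BMP target, was 4.01, 3.91 and 4.34 in co-culture, against 3.78, 3.17 and 3.55 in monoculture with no overlap and a difference of 0.59 ± 0.36. Smad6, the inhibitory SMAD of the BMP arm, was 6.97, 6.72 and 7.02 in co-culture, against 6.66, 6.59 and 6.47 in monoculture with no overlap and a difference of 0.33 ± 0.18. The remaining targets higher in every animal were Id1 (0.47 ± 0.33) and Hey1 (0.42 ± 0.53). Smad7, the inhibitory SMAD shared with TGF-beta, was the exception at -0.11 ± 0.20, and the pseudoreceptor Bambi (0.21 ± 0.28) and Id4 (0.14 ± 0.55) differed in sign between animals.

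The genes that encode BMP ligands and their antagonists gave no matching pattern. Over 10 of them the median was 0.053, with 2 higher and 2 lower in all 3 animals. Bmp2 was 6.95, 7.78 and 4.08 in co-culture, against 6.58, 6.00 and 3.60 in monoculture, higher within each animal by 0.37, 1.78 and 0.48 (0.88 ± 0.92 in the mean). Bmp4, the main ligand of intestinal mesenchyme, differed by -0.046 ± 0.40 and the secreted antagonist Grem1 by 0.11 ± 0.23. Fst, an activin and BMP antagonist, differed by 0.43 ± 0.31 and Nog by -0.10 ± 0.12. In the organoids, profiled with and without myofibroblasts, the BMP targets had a median difference of 0.024 with 0 members called.

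**Figure D2:**
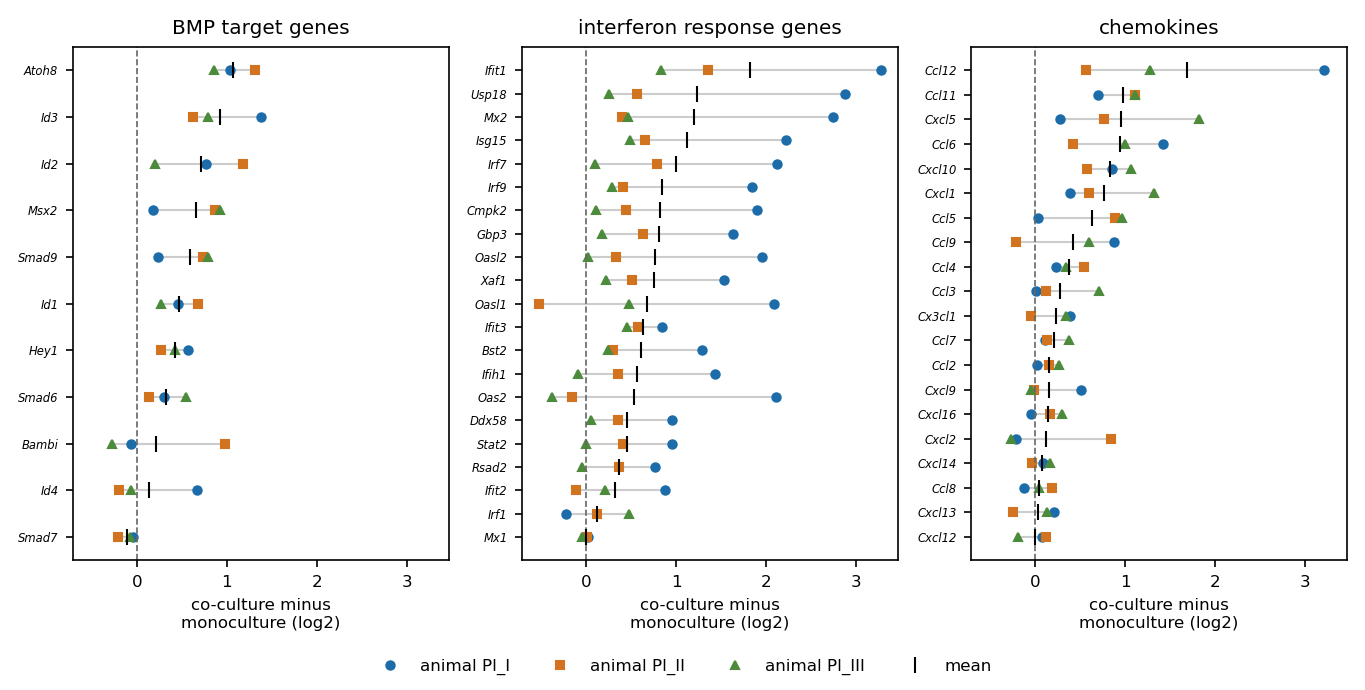
Difference (co-culture minus monoculture, log2) in each of the 3 animals for the members of 3 lists, ordered by the mean difference (black bar); grey lines join the 3 animals of a gene. BMP targets lay within a similar range in the 3 animals, interferon response genes were far higher in Pl_I (blue circles) than in the other two, and the mean differences of all 20 chemokines lay above zero.

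Interferon response genes had the largest median difference, and 1 animal carried most of it. Of 21 members, 14 were higher in all 3 animals and 0 lower, 4 had an unadjusted p under 0.05 (Ifit1, Irf9, Mx2 and Xaf1), and 0 passed. The median of 0.68 split into 1.63, 0.40 and 0.21 in the 3 animals, and without Pl_I it was 0.28. The mean level of the list was 7.88, 6.21 and 6.02 in co-culture, against 6.30, 5.84 and 5.82 in monoculture. The Pl_I co-culture array thus stood above the other 5, which lay between 5.82 and 6.30. In the same animals the macrophage markers had median differences of 0.27, -0.016 and 0.088, so they too were highest in Pl_I; their part in the result was not tested.

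Ifit1, a cap-binding antiviral protein, was 10.06, 7.28 and 6.13 in co-culture, against 6.78, 5.93 and 5.30 in monoculture and differed by 1.82 ± 0.79 (adjusted p = 1). Isg15, a ubiquitin-like modifier, was 9.94, 7.74 and 6.90 in co-culture, against 7.72, 7.08 and 6.41 in monoculture. Usp18, the protease that removes Isg15, was 10.01, 7.20 and 6.49 in co-culture, against 7.13, 6.63 and 6.23 in monoculture. In each of these 3 genes the Pl_I co-culture had the highest value of the 6 arrays, and the differences of Ifit1 were 3.27, 1.35 and 0.83 in the single animals. Irf9, the DNA-binding subunit of the interferon complex, was 8.79, 7.65 and 7.73 in co-culture, against 6.94, 7.24 and 7.44 in monoculture, and its groups did not overlap. Irf7, the factor that amplifies interferon production, was 9.01, 6.94 and 6.38 in co-culture, against 6.89, 6.15 and 6.28 in monoculture. Rtp4, an interferon-induced receptor chaperone outside the list, was 9.73, 7.95 and 6.95 in co-culture, against 7.59, 6.94 and 6.11 in monoculture and higher in every animal (1.33 ± 0.55). Irf1, an interferon-induced transcription factor, differed by 0.13 ± 0.25. Mx1 lay under the filter level in all 6 arrays, so that no difference could be read from it.

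The promoters of Ifit1 and Isg15 are shown because they hold the element through which type I interferon acts. The core of the interferon-stimulated response element, in which 2 copies of the same 4 letters flank any 2 bases, was searched on both strands from 250 bases before to 50 bases after each annotated start (RefSeq, GRCm38.p6). It was found in the promoters of 9 of the 17 list members with a promoter in the table, against 3.60% of the 13963 tested genes with one. The 9 were Bst2, Ddx58, Gbp3, Ifih1, Ifit1, Ifit3, Isg15, Rsad2 and Stat2. In Ifit1 the matches began 104 and 85 bases before the start, and in Isg15 78, 72 and 66 bases before it, where they overlap each other. A match is a description of these letters and not of binding in these cells. Ifit1 lies on the plus strand at chr19:34640639-34640938 and Isg15 on the minus strand at chr4:156200769-156201068, and both are printed 5′ to 3′ with the matches in capitals.
Ifit1: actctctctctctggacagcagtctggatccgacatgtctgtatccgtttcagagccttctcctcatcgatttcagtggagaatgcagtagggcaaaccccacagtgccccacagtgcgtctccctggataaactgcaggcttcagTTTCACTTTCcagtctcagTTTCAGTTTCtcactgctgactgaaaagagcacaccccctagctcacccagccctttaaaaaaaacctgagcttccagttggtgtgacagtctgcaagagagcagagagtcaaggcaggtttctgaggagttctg
Isg15: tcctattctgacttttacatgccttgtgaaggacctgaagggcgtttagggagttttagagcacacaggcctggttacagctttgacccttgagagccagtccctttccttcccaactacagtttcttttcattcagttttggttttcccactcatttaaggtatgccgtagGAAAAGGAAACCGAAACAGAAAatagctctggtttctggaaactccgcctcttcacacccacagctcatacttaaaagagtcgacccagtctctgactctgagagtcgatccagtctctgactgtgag
For the BMP targets an element bound by SMAD proteins, TGGCGCC on either strand, was found in 1 of 7 members with a promoter (Smad9), against 6.96% of genes.

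Chemokine genes leaned higher in all 3 animals. Of 20 chemokines tested, 11 were higher in every animal and 0 lower, and all 20 mean differences were positive. The median was 0.25 (0.22, 0.18 and 0.36 in the single animals, 0.27, 0.32 and 0.28 without each in turn), 1 member (Ccl12) had an unadjusted p under 0.05, and 0 passed. The groups overlapped for every member.

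Ccl11 (eotaxin, which attracts eosinophils) was 8.81, 9.65 and 6.81 in co-culture, against 8.11, 8.54 and 5.70 in monoculture. Its within-animal differences of 0.70, 1.11 and 1.11 were close to each other, and with the fixed replicate block it shared the smallest adjusted p of that fit, 0.365, with Atoh8, Hoxd9, Mfap4, Nos2, Tnfsf18 and U90926. Ccl12, a ligand of the monocyte receptor Ccr2, was 7.34, 6.76 and 5.54 in co-culture, against 4.13, 6.20 and 4.26 in monoculture and differed by 1.68 ± 0.51. Most of that mean came from Pl_I, which had the highest co-culture and the lowest monoculture value. The monoculture value of Pl_III was nearly as low. Cxcl1, a neutrophil attractant, was 10.75, 10.63 and 9.50 in co-culture, against 10.37, 10.03 and 8.19 in monoculture. Cxcl5, which acts on the same receptor, was 12.35, 12.00 and 8.65 in co-culture, against 12.07, 11.23 and 6.83 in monoculture. Both differed most in Pl_III, the animal with the lowest levels. Cxcl10, an interferon-induced T-cell attractant, was 11.12, 9.89 and 7.43 in co-culture, against 10.26, 9.31 and 6.36 in monoculture and was higher by 0.85, 0.58 and 1.06 in the single animals. Ccl6, a chemokine of myeloid cells, averaged 8.77 ± 1.54 in co-culture and 7.83 ± 1.67 in monoculture (SD, n = 3 each). Ccl2, the main monocyte attractant, differed by 0.15 ± 0.48, and Cxcl12, the constitutive stromal chemokine, by 0.0018 ± 0.33.

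Other inflammatory genes followed in part. Of 17 cytokines and NF-kB genes 5 were higher in all 3 animals and 0 lower, with a median of 0.18 and 0 at an unadjusted p under 0.05. The siderophore-binding protein Lcn2 was 10.03, 9.90 and 7.56 in co-culture, against 9.37, 9.37 and 5.30 in monoculture and differed most in Pl_III. The acute-phase gene Saa3 was 13.10, 13.15 and 11.81 in co-culture, against 12.91, 12.92 and 10.31 in monoculture. Il1b differed by 0.65 ± 0.43 and Il6 by 0.54 ± 0.57, each lower in co-culture in Pl_II. Nos2, the inducible nitric oxide synthase, was 8.19, 7.62 and 4.73 in co-culture, against 6.74, 5.70 and 3.76 in monoculture and higher by 1.45, 1.92 and 0.97 in the single animals. Nos2, Lcn2 and most chemokines are also made by macrophages, whose markers averaged 8.03 ± 0.40 in co-culture and 7.90 ± 0.39 in monoculture (SD, n = 3 each). Of the macrophage markers 6 of 18 were higher in all 3 animals and 1 lower, with a median of 0.12 (0.013 without Pl_I); their part in the chemokine values was not tested.

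Several genes outside these lists held their direction in every animal. Tnfsf18, the ligand of the T-cell costimulatory receptor GITR, was 4.61, 4.73 and 7.24 in co-culture, against 5.89, 6.97 and 8.62 in monoculture. It was lower by more than 1 within each animal, while the animals themselves spanned more than that, and the difference was -1.63 ± 0.69 (adjusted p = 1). Cd80, a ligand of the T-cell receptors CD28 and CTLA-4, was 8.23, 7.90 and 9.01 in co-culture, against 8.87, 8.71 and 9.71 in monoculture and differed by -0.72 ± 0.36. Nes, the intermediate filament nestin, was 7.64, 7.80 and 8.77 in co-culture, against 8.28, 8.54 and 9.34 in monoculture. The Y RNA Rny1, a small non-coding RNA bound by the Ro protein, was 8.22, 8.55 and 8.37 in co-culture, against 9.72, 9.54 and 9.29 in monoculture and differed by -1.14 ± 0.37, with no overlap between groups. Elfn1 was 4.36, 3.73 and 4.07 in co-culture, against 4.67, 5.34 and 5.05 in monoculture. Plek2, a pleckstrin family protein, was 2.71, 3.03 and 2.91 in co-culture, against 4.01, 3.74 and 3.35 in monoculture. Neither gene's groups overlapped, and the Plek2 co-culture values lay near the filter level of 2.67. Sema7a, a membrane-anchored semaphorin, was 4.97, 5.09 and 5.24 in co-culture, against 5.10, 6.76 and 6.49 in monoculture, a difference that lay in Pl_II and Pl_III. Napsa, Olfr492, Apol10a, Gm1123 and Gbp8 were also among the 12 lower genes ranked first by the smallest of their 3 within-animal differences, at low co-culture means between 2.29 (Gbp8) and 3.41 (Gm1123).

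On the higher side U90926 was 9.62, 8.32 and 4.92 in co-culture, against 7.58, 6.79 and 3.45 in monoculture. Fabp7, a fatty acid carrier, was 7.72, 6.35 and 5.60 in co-culture, against 6.50, 4.40 and 4.56 in monoculture. These 2 genes differed by more than 1 in every animal, and their levels fell into different ranges in the 3 animals. Neither passed (1.68 ± 1.12 and 1.40 ± 0.56). With the animal as a fixed replicate block in limma the SEs were 0.21 and 0.19, and neither gene passed there (adjusted p = 0.365 and 0.41). Cyp7b1, an oxysterol hydroxylase, was 8.57, 8.25 and 6.30 in co-culture, against 7.37, 7.37 and 5.32 in monoculture and differed by 1.03 ± 0.64. Hcar1, the lactate receptor, was 4.21, 3.83 and 3.63 in co-culture, against 3.43, 3.12 and 2.73 in monoculture with no overlap and a difference of 0.80 ± 0.20. Slfn3, a schlafen family gene, was 4.83, 3.72 and 4.14 in co-culture, against 3.70, 2.73 and 3.39 in monoculture, also with no overlap. Gm16685 (1.15 ± 0.59) and the matrix metalloprotease gene Mmp1b (1.24 ± 0.52) completed the 12 higher genes ranked first by the smallest of the 3 within-animal differences. The others were U90926, Fabp7, Cyp7b1, Hcar1, Slfn3, Hoxd9, Atoh8, Rtp4, Ifit1 and Nos2. Mmp1b stood at 1.66 and 1.67 in the Pl_II and Pl_III monocultures, under the filter level of 2.67, so its difference involves dim values. Trim34a had 2 probe sets, with differences of 1.08 and 0.04.

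The secreted factors by which myofibroblasts act on the epithelium differed little as a group. Of 10 Wnt ligands and R-spondins 4 were higher and 2 lower in all 3 animals (median 0.062), and 1 had an unadjusted p under 0.05. That was Wnt5b, a ligand of the non-canonical branch, at 4.01, 3.54 and 3.81 in co-culture, against 3.17, 3.04 and 3.51 in monoculture, with no overlap and a difference of 0.55 ± 0.16. Wnt9a was lower in each animal, at 4.50, 4.65 and 5.45 in co-culture, against 5.16, 5.16 and 6.62 in monoculture. Rspo3, the stromal R-spondin that sustains crypt stem cells, averaged 9.58 ± 0.45 in co-culture and 9.38 ± 0.57 in monoculture (SD, n = 3 each), a difference of 0.20 ± 0.33. Among secreted Wnt inhibitors Dkk2, a ligand of the LRP co-receptors, was 7.40, 7.30 and 8.26 in co-culture, against 8.30, 8.12 and 8.76 in monoculture and differed by -0.74 ± 0.24, lower in 3 of 3 animals and past an unadjusted p of 0.05. Its relative Dkk3 differed by -0.49 ± 0.30 and was also lower in every animal.

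No EGF family ligand of the 8 tested had an unadjusted p under 0.05. Ereg was 10.82, 9.85 and 8.23 in co-culture, against 10.44, 9.69 and 8.73 in monoculture and differed by 0.010 ± 0.58. Hbegf differed by -0.56 ± 0.49 and Nrg1, a stromal ligand of the ErbB receptors, by -0.12 ± 0.82. Of 17 other growth factors 2 were higher and 3 lower in all 3 animals. Fgf7, the keratinocyte growth factor that mesenchyme makes for epithelium, was 9.94, 10.04 and 6.69 in co-culture, against 9.54, 9.75 and 5.73 in monoculture, higher by 0.40, 0.29 and 0.96 in the single animals. Fgf2 was 6.52, 5.98 and 4.53 in co-culture, against 6.78, 7.09 and 5.62 in monoculture with differences of -0.26, -1.11 and -1.08. Neither passed (0.55 ± 1.00 and -0.82 ± 0.45), and both were lowest in Pl_III in either culture. Ptgs2, the inducible cyclooxygenase of prostaglandin synthesis, was 12.29, 12.16 and 11.53 in co-culture, against 12.03, 12.26 and 11.74 in monoculture and differed by -0.012 ± 0.70. Ptger3, a prostaglandin E2 receptor, was 2.75, 3.56 and 2.99 in co-culture, against 2.77, 2.45 and 2.60 in monoculture, a difference of 0.49 ± 0.19 that lay in Pl_II and Pl_III.

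Hedgehog ligands come from the epithelium and act on the stroma, where Ptch1 and Gli1 are targets. Gli1 lay below the filter level for dim genes and was not tested, at 2.40, 2.57 and 2.10 in co-culture, against 2.27, 2.92 and 2.33 in monoculture. Ptch1, the receptor and a target, was 7.52, 7.56 and 6.96 in co-culture, against 7.34, 7.04 and 6.71 in monoculture, higher in every animal with a difference of 0.32 ± 0.19 (adjusted p = 1). Of the 7 genes tested 4 were higher in all 3 animals and 0 lower, with a median of 0.14 that was 0.065, 0.48 and 0.059 in the single animals, so that Pl_II carried most of it. Foxf1, a stromal transcription factor under hedgehog control, differed by 0.14 ± 0.28 and Gli3 by 0.26 ± 0.22. Notch and Wnt target lists had medians of 0.041 and -0.049. Dll1, a Notch ligand, was 5.47, 4.86 and 4.84 in co-culture, against 4.92, 4.28 and 3.65 in monoculture, but its second probe set differed by -0.03 against 0.77 for the one used.

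**Figure D3:**
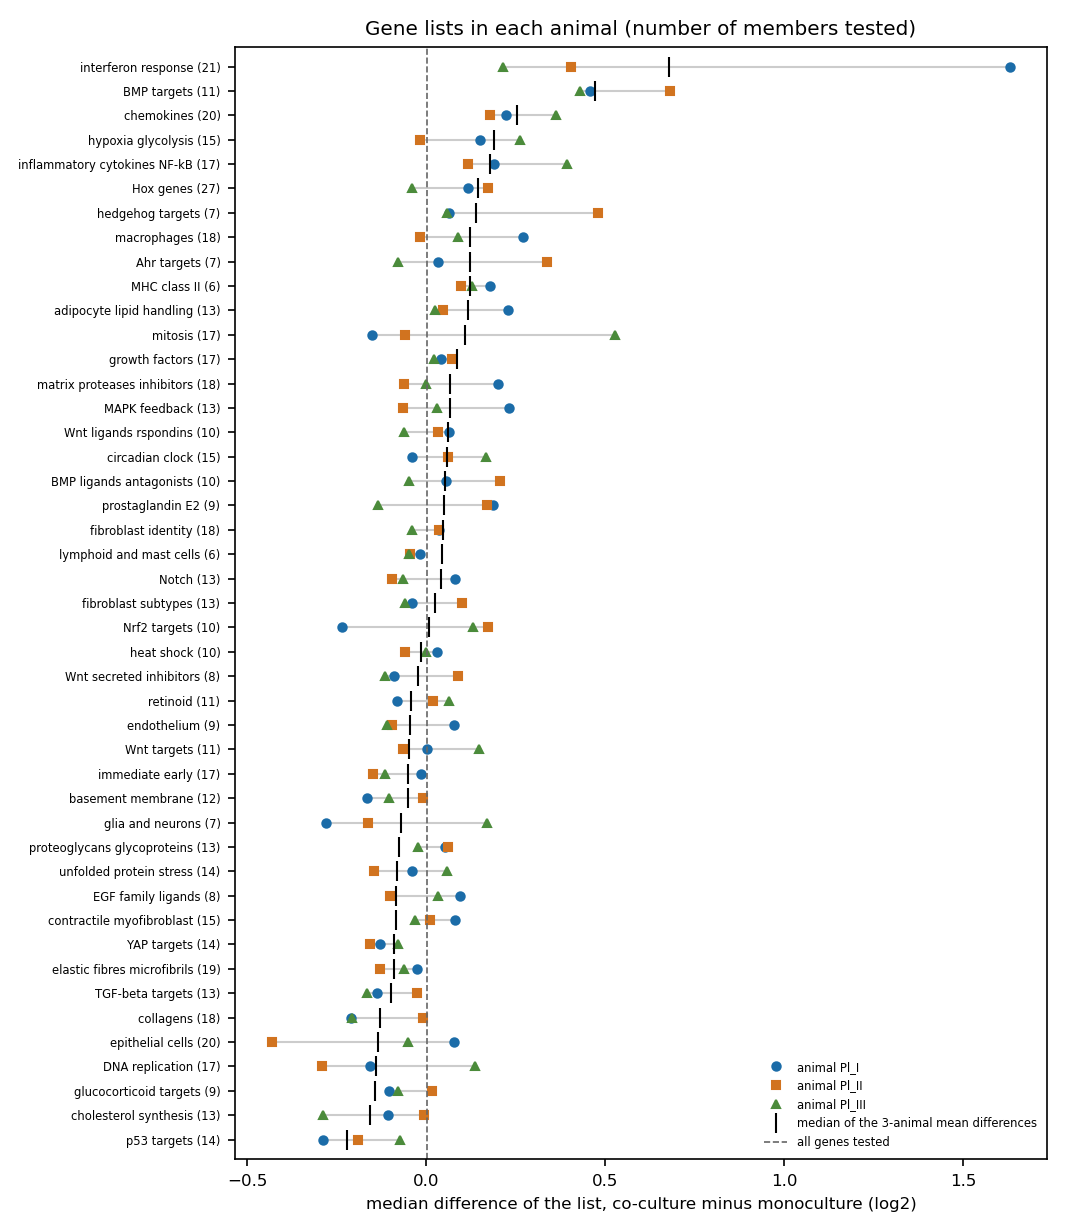
Median difference (co-culture minus monoculture, log2) of each of 45 gene lists in the 3 animals (symbols) and of the 3-animal means (black bar), with the number of members tested; the dashed line is the median of all genes tested, 0.0034. BMP targets lay at 0.43 to 0.68 in all 3 animals, interferon response genes at 1.63, 0.40 and 0.21 in Pl_I, Pl_II and Pl_III, and the black bars of 41 of the 45 lists within 0.2 of zero.

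Lists of growth and metabolism split by animal or stayed near the background. DNA replication genes had a median of -0.14 (-0.16, -0.29 and 0.14 in the single animals), and mitosis genes 0.11 (-0.15, -0.059 and 0.53), so that Pl_III differed in sign from the other two in both. Of the 17 replication genes 5 were lower in all 3 animals, among them Cdc6, which loads the replicative helicase, at 6.00, 6.62 and 4.92 in co-culture, against 6.63, 7.33 and 5.57 in monoculture (-0.66 ± 0.47). Targets of p53 had 7 of 14 members lower and 0 higher in all 3 animals, with a median of -0.22 (-0.29, -0.19 and -0.074 in the single animals and -0.094 without Pl_I) and 0 at an unadjusted p under 0.05. Btg2, an antiproliferative target, differed by -0.38 ± 0.21 and Mdm2, the ligase that degrades p53, by -0.24 ± 0.21. Cholesterol synthesis genes were negative in all 13 mean differences, but only 5 were lower in all 3 animals, the median was -0.16 (-0.11, -0.0055 and -0.29 in the single animals and -0.079 without Pl_III), and Lss, the largest, was at -0.37 ± 0.62. Hypoxia and glycolysis genes had 6 of 15 higher in all 3 animals (median 0.19, 0.15, -0.018 and 0.26 in the single animals and 0.043 without Pl_III), with Bnip3, a mitophagy receptor induced by hypoxia, at 8.85, 8.81 and 7.70 in co-culture, against 8.35, 8.43 and 6.60 in monoculture.

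Lipid handling genes included 2 whose groups did not overlap. Fabp4, the fatty acid carrier of adipocytes and macrophages, was 7.17, 7.52 and 6.43 in co-culture, against 6.32, 5.77 and 5.98 in monoculture, with no overlap and a difference of 1.02 ± 0.25 (adjusted p = 1, and 0.232 with the animal as a random block). Pnpla2, the lipase that starts triglyceride breakdown, was 8.93, 8.85 and 8.94 in co-culture, against 8.55, 8.33 and 8.56 in monoculture. Its groups did not overlap either, and its difference was 0.43 ± 0.11. Of the 13 members 5 were higher in all 3 animals and 0 lower (median 0.12), and Pparg, the regulator of adipocyte genes, differed by 0.055 ± 0.64. Among matrix proteases Mmp3, stromelysin, was 11.47, 10.83 and 6.80 in co-culture, against 10.86, 9.32 and 5.35 in monoculture and higher by 0.62, 1.51 and 1.45 within animals (1.19 ± 1.29), and Mmp13, a collagenase, differed by 0.61 ± 0.24 but was lower in Pl_II. Over 18 proteases and inhibitors the median was 0.067.

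Some differences belonged to 1 animal. In Pl_I the genes whose difference exceeded that of the other animals by most were interferon-induced: Apol9b (3.08, 0.034 and -0.17), Usp18, Mx2 and Oas2 (2.11, -0.16 and -0.37), together with Ifi207. Ednrb, the endothelin B receptor, was 7.07, 6.93 and 4.38 in co-culture, against 8.82, 5.71 and 3.75 in monoculture, lower in Pl_I and higher in the other two. In Pl_II the acute-phase gene Saa4 was 5.06, 5.20 and 2.60 in co-culture, against 4.58, 2.81 and 2.54 in monoculture. In Pl_III interferon-inducible genes stood out on the other side: Iigp1, an immunity-related GTPase, was 8.35, 6.85 and 3.80 in co-culture, against 5.96, 4.57 and 3.79 in monoculture, so that it was higher by more than 2 in Pl_I and Pl_II and level in Pl_III. Fgf23, a phosphate-regulating hormone, was 8.85, 6.30 and 2.85 in co-culture, against 6.77, 4.27 and 2.86 in monoculture and followed the same pattern. Zfp455, a zinc finger gene, was 3.54, 3.55 and 3.91 in co-culture, against 3.72, 4.49 and 2.24 in monoculture, higher in Pl_III and lower in the other two.

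The organoids profiled with and without myofibroblasts allowed a test of whether the responses of the cell types differed. Their titles carry the animal tags P28 and P30 and do not tie them to any myofibroblast array. The difference of differences (myofibroblast minus epithelium) passed for 200 genes, 49 higher (0.271%) and 151 lower (0.834%), and in a fit that held the animal as a block for 862, which included 191 of the 200. Without both Pl_I myofibroblast arrays 33 passed. Of the 200, 194 were called within the epithelium, where 490 genes (2.71%) were higher and 239 (1.32%) lower. Over these 200 the median size of the difference was 0.13 in myofibroblasts and 1.45 in epithelium, and 20 had an unadjusted p under 0.05 in myofibroblasts. Of the 200 genes, 10 had a mean over the myofibroblast arrays under the filter level of 2.67. The myofibroblast difference was the larger one in 4 genes, Mfap4, Hoxd9, Plek2 and Mfsd4b3-ps. With the animal as a block it was the larger one in 24 genes, which held 3 of these 4 (not Plek2) and also Ccl11 (0.97 in myofibroblasts against -0.18 in epithelium, adjusted p = 0.0285), U90926 (1.68 against -0.066, 0.0389), Rny1 (-1.14 against 0.31, 0.037) and Tnfsf18 (-1.63 against -0.14, 0.0482). For Mfap4 it was -1.06 ± 0.12 in myofibroblasts against -0.043 ± 0.15 in epithelium (-1.01 ± 0.20 between them, adjusted p = 0.0344). For Hoxd9 it was 1.29 ± 0.21 against -0.30 ± 0.26 (1.59 ± 0.33, adjusted p = 0.0476), but its means in myofibroblast monoculture (2.45) and in organoids (2.37 in co-culture and 2.66 in monoculture) all lay under the filter level, so that the sizes are those of values at the dim end of the scale. Plek2 was at -0.82 ± 0.16 against 0.40 ± 0.19 (-1.21 ± 0.25, adjusted p = 0.0438), with a myofibroblast co-culture mean of 2.89, near the filter level. Each of these calls was lost on leaving out any single organoid array; over all 17 alternatives it was lost in 8 for Mfap4 (adjusted p up to 0.123), in 10 for Hoxd9 (up to 0.155) and in 10 for Plek2 (up to 0.149), where the animal as a replicate block gave 0.061.

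Fkbp5 showed opposite differences in the cell types. Its difference was -0.68 ± 0.12 in myofibroblasts, and it rose in co-cultured epithelium by 0.88 ± 0.15 (adjusted p = 0.00891), to a mean of 7.14 against 6.27 without myofibroblasts. The difference between both responses was -1.55 ± 0.20 (adjusted p = 0.00445) and kept its call in all 17 alternatives. Other genes of the 20 with an unadjusted p under 0.05 in myofibroblasts also had the opposite sign in epithelium, which the selection of genes whose responses differ favours, among them Cyp2j9, a cytochrome P450 (0.44 ± 0.15 against -1.82 ± 0.19), Tnfrsf12a, the receptor of the cytokine TWEAK (-0.33 ± 0.15 against 1.45 ± 0.18), and the potassium chloride cotransporter Slc12a4 (-0.41 ± 0.15 against 1.11 ± 0.18).

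**Figure D4:**
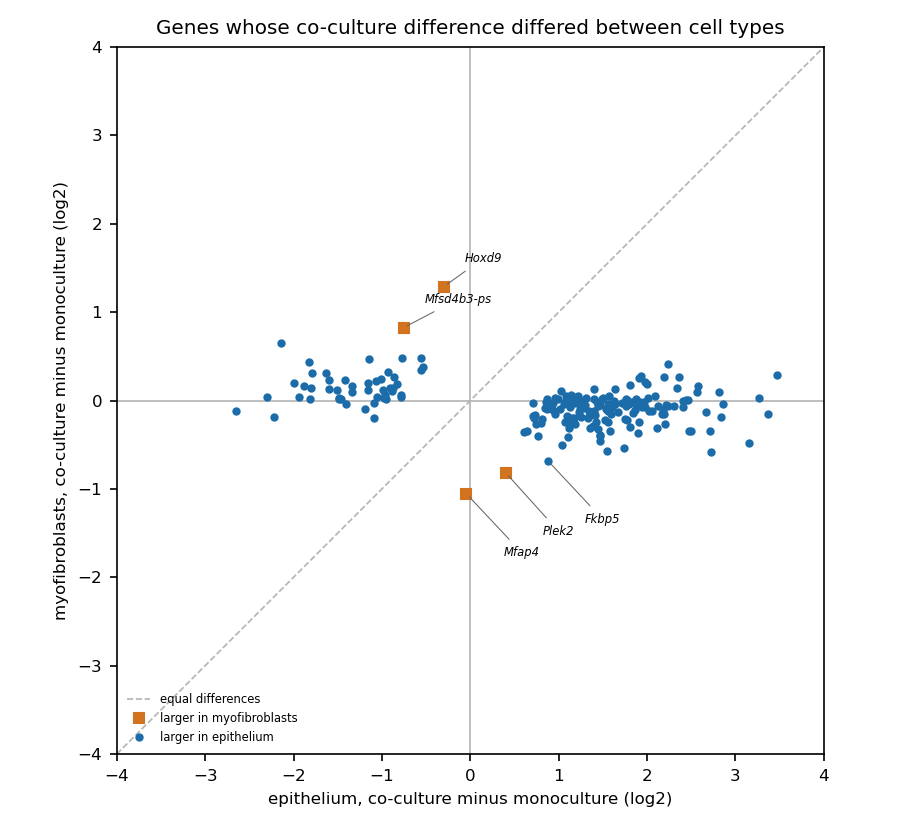
Difference between co-culture and monoculture (log2) in myofibroblasts (vertical axis) against that in epithelium (horizontal axis) for the 200 genes whose responses differed; orange squares mark the 4 genes with the larger difference in myofibroblasts. Points spread further along the horizontal axis (median size 1.45) than the vertical one (0.13), with Mfap4 at -1.06 vertically and -0.043 horizontally and Fkbp5 at -0.68 vertically and 0.88 horizontally.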

How the data were processed

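The authors deposited log2 expression values of 41345 probe sets on 16 arrays, which the submitters' processing notes say came from RMA; of the array library file and the genome build, the sources used here name neither. RMA normalizes between arrays, so a shift common to all genes would not show. Each gene was read from its brightest probe set with 1 symbol (23521 probe sets; 1814 had several symbols and 16010 none) and tested where the highest group mean exceeded the 30th percentile of probe set means, 2.67. Technical repeats were averaged, and limma 3.58.1 (R 4.3.3) was fitted to 14 samples of 9 animals in 5 groups. Benjamini-Hochberg adjustment ran over 18095 genes with a threshold of 0.05. This fit compared group means and left out the pairing by animal, and the SEs beside differences come from it. Its spread was pooled over all 5 groups, so an SE can exceed the spread of the myofibroblast arrays alone. The median SE was 0.19, and 0.13 with the animal as a fixed block. The fit was tested on simulated data with independent noise and no animal effect, so that test does not bear on the pairing. P-values measure the spread between these samples; the number of arrays limits precision.

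The titles give both cultures of an animal 1 tag, which pairs them, although another label of the Pl_III monoculture array names Pl_II. Deviations of the paired cultures from the group means correlated at 0.62, 0.51 and 0.79. The animal as a fixed or random block, other filters, loess, another variance prior, mean probe sets and left-out arrays were alternatives. The genes and 45 lists (644 genes, 583 tested) were chosen with earlier results of these data known. Named genes were those called, the 12 each way with the largest smallest-of-3 difference, the 8 each way with the largest difference at an unadjusted p under 0.05, the 5 each way most particular to an animal, from each list at most 4 genes of lowest p, or genes showing a list without a difference, the 6 largest differences of response each way, and 15 preset genes. Tnfrsf12a, Slc12a4 and other genes outside this rule were chosen after their values were seen.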

Additional observations from a re-analysis of the deposited data

Results flagged for a closer look

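For 16 named genes the response to co-culture differed between myofibroblasts and epithelium by limma's test of the difference itself (myofibroblast minus epithelium, log2). Passing this test was the condition for a gene to be listed here, so the count is not separate support. The response was larger in myofibroblasts for Hoxd9 (1.59), Mfap4 (-1.01) and Plek2 (-1.21), and opposite in sign for Fkbp5 (-1.55). Opposite signs were not particular to Fkbp5: Hoxd9 and Plek2 had them too, as did 156 of the 200 genes that passed. For Hoxd9 the means in myofibroblast monoculture (2.45) and in the organoids lay under the filter level of 2.67, so its size is that of values at the dim end of the scale. The means of Mfap4 (3.35) and Plek2 (2.89) in co-cultured myofibroblasts were dim as well.

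In the other 12 genes the epithelium carried most of the difference. It was negative for Krt80 (-3.64), Nid1 (-3.52), Anxa8 (-3.30), Ccnd1 (-3.24), Krt4 (-3.18) and Pbp2 (-3.05), which were higher in co-cultured than in monocultured epithelium. It was positive for Cyp2c38 (2.80), Cyp1a1 (2.52), Ugt2b36 (2.34), Cyp2j9 (2.26), Slc5a11 (2.19) and Ces3a (2.11), which were lower in co-cultured epithelium. Cyp2c38 (2.36 in co-culture and 1.71 in monoculture), Ces3a (2.37 and 2.06) and Ugt2b36 (1.91 and 1.87) lay under the filter level in myofibroblasts. Nid1, a basement membrane protein, had a mean of 11.91 in co-cultured and 12.06 in monocultured myofibroblasts.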

How the results depend on the processing

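With the animal as a fixed replicate block, 0 genes passed between co-cultured and monocultured myofibroblasts in limma's test, and 1352 had an unadjusted p under 0.05. The 6 myofibroblast arrays alone also gave 0, with the block (1350 unadjusted) and without it (404), as did a trended robust variance prior (489). The animal as a random replicate block gave 3 genes, Mfap4, Hoxd9 and Fkbp5. Leaving out arrays or animals gave 0 to 1. The difference of responses, 200 genes in the fit reported, was 862 with the replicate block and 1383 with the random block, and 56 to 164 when 1 array was left out. Without both arrays of an animal it was 33 (Pl_I), 62 (Pl_II) and 176 (Pl_III), an alternative chosen after seeing the data. Of 225 list medians recomputed, 24 moved by more than the spread between animals. Of the recomputed values of named genes 59 lost and 2 gained a call, and no called value reversed. Signals near the dim end of the scale, as for Hoxd9 in monoculture and for Mfap4 and Plek2 in co-culture, limit what a difference there can show. The causes of these changes were not tested.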
